A study of Mus musculus with 48 samples.

Results

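The 10 genes described here mark the 2 classes of projection neuron of the mouse striatum: Isl1, Ebf1, Eya1, Sfxn1 and Chrm4 for the direct pathway, and Adora2a, Gpr6, Gpr52, Sp9 and Grik3 for the indirect pathway. They were taken from the gene table by symbol, and all 10 were found among its 23420 genes and were kept among the 16716 genes tested. RNA came from the striatum of 16 mice of about 50 days of age, 8 of a line called 112kb congenic and 8 wild-type C57BL/6J littermates, with 4 males and 4 females in each genotype. As background, the congenic segment comes from the DBA/2J strain and lies on chromosome 11. Whether the congenic mice carried it on 1 or both chromosomes, and any other difference from their littermates, is not given in the labels. For each mouse, 3 mm punches from the left and right striatum were put together, so that every value is a mixture of all cells in the punches. Each mouse was sequenced on 3 lanes, and the lanes were summed, so that n counts mice.

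The striatum sends its output through a pair of projection neuron classes. Direct pathway neurons express the dopamine D1 receptor with substance P and dynorphin and project to the output nuclei of the basal ganglia, and their activity is linked with the promotion of movement. Indirect pathway neurons express the dopamine D2 receptor with enkephalin, project to the external pallidum and are linked with the suppression of movement. Both classes arise from the same embryonic region, and transcription factors such as Isl1 and Sp9 act in separating them. The series title names splicing as the question put to the congenic line, and the present comparisons ask whether the identity genes of either class, or their balance, differed between the genotypes.

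Levels are given in CPM, read counts per M (mega) of library size after scaling by the trimmed mean of M-values (TMM). The summed libraries held 73.1 to 82.0 M counts per mouse, and 531 to 42358 of them fell on a single member. Wild-type mouse Sample_4806, labelled female, had 2.64 CPM of Xist, a noncoding RNA transcribed from the silenced X chromosome of females, where the other 7 females had 951 to 1549 CPM and the males 1.35 to 17.6 CPM. It held 7 counts from 4 genes of the Y chromosome, where males held 13555 to 15622. The main results by sex are therefore also given without it.

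Promoter sequences of 7 members were matched by symbol in RefSeq (GRCm38.p6), each from 250 bases before to 50 after the annotated start, while Eya1, Adora2a and Gpr52 were not matched. The motifs searched on both strands were GGGCGG, the GC box that factors of the SP family, such as Sp9, bind, and CCCNNGGGA, the motif of Ebf1 and its relatives. The promoters of Chrm4, Gpr6 and Grik3 are shown because the levels of Chrm4 and Gpr6, of opposite classes, were correlated across mice, while Grik3 holds the most GC boxes; capitals mark GC boxes on either strand.
Chrm4, chr2:91921939-91922238, plus strand: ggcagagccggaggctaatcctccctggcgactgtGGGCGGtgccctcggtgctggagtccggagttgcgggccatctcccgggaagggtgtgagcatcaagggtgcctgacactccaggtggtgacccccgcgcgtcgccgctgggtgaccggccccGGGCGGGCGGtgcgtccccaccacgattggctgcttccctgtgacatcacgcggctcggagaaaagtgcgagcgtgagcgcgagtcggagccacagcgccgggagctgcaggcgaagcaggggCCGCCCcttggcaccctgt
Gpr6, chr10:41072241-41072540, minus strand: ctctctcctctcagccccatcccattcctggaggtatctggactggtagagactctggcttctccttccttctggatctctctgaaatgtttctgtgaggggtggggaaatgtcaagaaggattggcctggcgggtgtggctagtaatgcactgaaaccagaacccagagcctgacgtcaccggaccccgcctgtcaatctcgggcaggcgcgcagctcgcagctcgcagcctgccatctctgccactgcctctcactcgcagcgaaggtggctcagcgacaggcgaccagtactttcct
Grik3, chr4:125490446-125490745, plus strand: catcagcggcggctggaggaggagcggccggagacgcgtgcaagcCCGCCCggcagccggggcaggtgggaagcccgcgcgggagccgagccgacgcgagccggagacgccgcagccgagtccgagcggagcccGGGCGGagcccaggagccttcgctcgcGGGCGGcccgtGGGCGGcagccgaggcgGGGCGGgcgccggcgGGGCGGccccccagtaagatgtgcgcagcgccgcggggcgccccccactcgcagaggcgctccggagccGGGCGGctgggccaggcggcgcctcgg

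GC boxes numbered 7 in the Grik3 promoter, 4 in that of Chrm4, a pair of which overlap, 2 in that of Sfxn1 and 1 in that of Sp9, and there was none in those of Isl1, Ebf1 and Gpr6. Of all 32851 promoters in the table, 35.7% held at least 1. The EBF motif was in none of the 8 member promoters, Ebf1 having 2, where 6.56% of all promoters held it. Grik3 had 82% of its promoter bases as G or C and Gpr6 58.7%, against a median of 52.7% over all promoters. These counts describe letters in a window and say nothing of whether a factor binds there.

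None of the 10 members passed the test between congenic and wild-type mice, and the groups overlapped for all 10. By edgeR's quasi-likelihood test with sex in the model and Benjamini-Hochberg adjustment over all genes, 0 of 10 members were called, against a background of 0% of all genes, and every member had an adjusted p of 0.999. At an unadjusted p under 0.05 there were also 0 members in edgeR, against 1.53% of all genes, and 0 in DESeq2 and in limma-voom. The 95% interval of each log2 fold change lay between -0.19 and 0.28. The median log2 fold change was -0.02 for the 5 direct members, -0.02 for the 5 indirect members and 0.00 for all genes tested. Litters are not in the labels, and the p-values measure the spread between these mice only.

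Positions are on NCBIM37 (mm9). Among the transcription factors of the direct pathway, Isl1 (chr13:117088478-117099896, minus strand), a LIM homeodomain protein that also marks cholinergic interneurons, had a lowest value of 16.4, a median of 19.3 and a highest of 21.7 CPM in congenic mice, and 17.0, 18.4 and 19.5 CPM in wild-type mice. Its congenic values spanned beyond the wild-type ones at both ends, and the log2 fold change was 0.05 (SE 0.04). Ebf1 lies at chr11:44430819-44821593 on the plus strand, on the chromosome that also carries the congenic segment. It is a helix-loop-helix factor of the early B-cell factor family that pericytes also express, and ran from 7.78 through a median of 10.1 to 13.2 CPM in congenic mice, and from 7.597 through 9.78 to 11.6 CPM in wild-type mice. The groups overlapped below 11.6 CPM, congenic males Sample_4671 and Sample_4731 lay above every wild-type mouse, and the log2 fold change was 0.11 (SE 0.08). Eya1 (chr1:14159035-14300281, minus strand), a transcriptional coactivator of the eyes absent family, ran from 7.14 through 8.27 to 8.88 CPM in congenic mice and from 7.02 through 8.45 to 9.67 CPM in wild-type mice, and the congenic range lay inside the wild-type range.

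The other direct members act outside the nucleus. Chrm4 (chr2:91762346-91769986, plus strand), the M4 muscarinic acetylcholine receptor, which lowers cyclic AMP in direct pathway neurons, had 95.1, 111.6 and 125.7 CPM as lowest, median and highest in congenic mice, and 97.9, 111.0 and 136.6 CPM in wild-type mice. The medians differed by less than a CPM and the log2 fold change was -0.02 (SE 0.06). Sfxn1 (chr13:54167214-54203715, plus strand), sideroflexin, which carries serine into mitochondria, had 56.3, 67.0 and 74.96 CPM in congenic mice, and 62.2, 67.2 and 74.6 CPM in wild-type mice, with a log2 fold change of -0.02 (SE 0.05). Its gene lies 16.2 kb from Drd1a, the dopamine D1 receptor gene, on chromosome 13, and the log2 fold change of Drd1a was 0.03 (SE 0.04).

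Of the indirect members, 3 are receptors that raise cyclic AMP. Adora2a (chr10:74779688-74797533, plus strand), the adenosine receptor of type 2A, had 428.1, 499.7 and 542.6 CPM as lowest, median and highest in congenic mice, and 429.4, 494.8 and 569.6 CPM in wild-type mice. The lowest mice of both genotypes stood side by side, and the log2 fold change was -0.003 (SE 0.05), with a 95% interval of -0.11 to 0.10. Gpr6 (chr10:40789795-40792091, minus strand), an orphan receptor with activity of its own in the absence of a ligand, had 60.5, 71.5 and 76.8 CPM in congenic mice, and 57.3, 72.7 and 80.0 CPM in wild-type mice, so that the congenic range lay inside the wild-type range.

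Gpr52, another orphan receptor, had the smallest p of the members by genotype. It stood at 53.3, 73.2 and 83.1 CPM as lowest, median and highest in congenic mice, and at 55.2, 67.3 and 75.3 CPM in wild-type mice. The groups overlapped, with congenic female Sample_4804 the lowest mouse of all and congenic males Sample_4671 and Sample_4673 above every wild-type mouse. The log2 fold change was 0.12 (SE 0.06) with a 95% interval of -0.003 to 0.24 (unadjusted p = 0.0554 and adjusted p = 0.999 in edgeR's quasi-likelihood test), and its p had rank 295 among the 16716 genes tested. With the cortical marker score described below as a covariate the log2 fold change was 0.06.

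Sp9 and Grik3 completed the indirect set. Sp9 (chr2:73109982-73122763, plus strand), a zinc finger factor that indirect pathway neurons need for their development, had 25.4, 29.4 and 35.0 CPM in congenic mice, and 28.4, 30.8 and 34.0 CPM in wild-type mice. Its log2 fold change was -0.04 (SE 0.05), and the congenic mice again held both the lowest and the highest value. Grik3 (chr4:125167944-125391417, plus strand), a kainate-type glutamate receptor subunit, had 104.8, 125.1 and 144.4 CPM in congenic mice, and 126.4, 133.5 and 140.7 CPM in wild-type mice. In all, 4 congenic mice lay below the lowest wild-type mouse and 1 above the highest, and the log2 fold change was -0.08 (SE 0.05) with a 95% interval of -0.19 to 0.02. It was -0.049 without Sample_4673, the lowest congenic mouse. With the cortical marker score as a covariate it was -0.041, and that of Isl1 was 0.016.

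**Figure D1:**
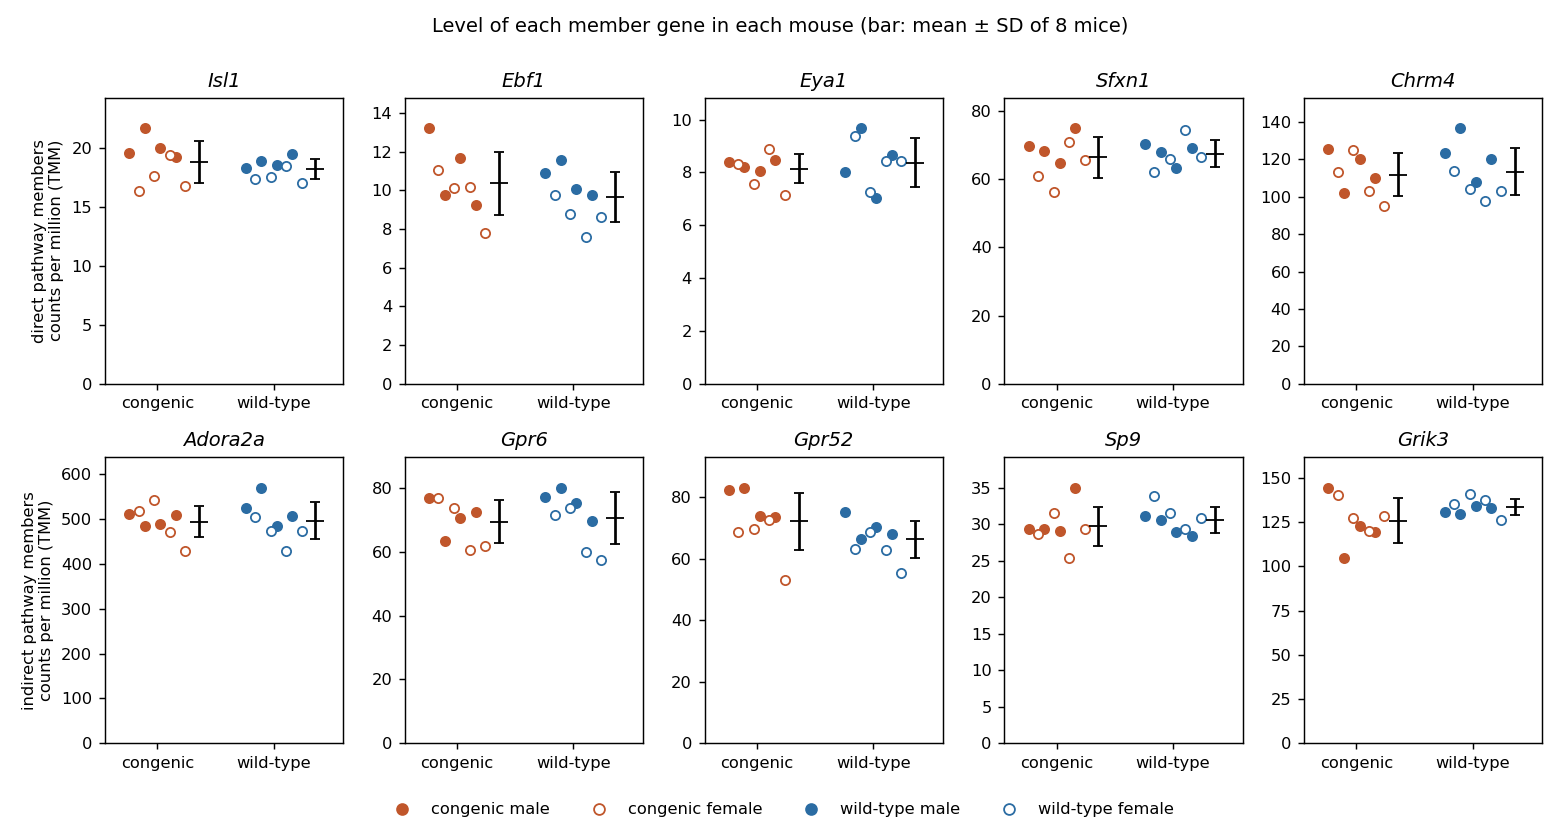
Level of each member gene in CPM, 1 point per mouse, with congenic mice on the left and wild-type mice on the right of each panel, filled points for males and open points for females; bars give the mean and SD of 8 mice. The genotypes overlapped for every member, and the spread of Grik3 was wider in congenic mice (SD 12.5 CPM) than in wild-type mice (SD 4.53 CPM).

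The other genes that define the pathways gave the same picture in counts. Of the direct pathway genes Drd1a, Tac1 (substance P), Pdyn (dynorphin), Slc35d3 (a nucleotide sugar transporter family member) and Zfp521 (a zinc finger factor), 0 of 5 were called by genotype, with log2 fold changes of -0.08 for Pdyn to 0.05 for Tac1. Of the indirect pathway genes Drd2 (the dopamine D2 receptor), Penk (enkephalin) and Plxdc1 (a plexin domain protein), 0 of 3 were called, with 0.003 for Drd2, 0.004 for Plxdc1 and 0.01 for Penk. For Drd1a, congenic mice averaged 295.5 ± 22.1 CPM and wild-type mice 289.7 ± 19.3 CPM (SD, n = 8 each). For Drd2, congenic mice averaged 221.9 ± 20.4 CPM and wild-type mice 221.8 ± 23.6 CPM, also over 8 mice each.

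The balance of the classes was taken in each mouse as the mean log2 CPM of the 5 direct members minus that of the 5 indirect members, with no test. It averaged -1.92 ± 0.085 over 8 congenic mice and -1.94 ± 0.081 over 8 wild-type mice (SD), a difference of 0.02. The congenic mice ran from -2.04 through a median of -1.93 to -1.79, and the wild-type mice from -2.09 through -1.94 to -1.85, so that the groups overlapped over most of their range. With the median over members in place of the mean, the difference was -0.03, which turns its direction, and both values are below the SD of 0.083 within a genotype. The level of 5 chosen genes against 5 others reflects which genes were chosen, so only its difference between mice can be read.

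Within each sex the balance was also close between the genotypes. It was -1.90 ± 0.049 in congenic males and -1.93 ± 0.078 in wild-type males, and -1.95 ± 0.11 in congenic females and -1.96 ± 0.090 in wild-type females (SD, n = 4 each). The difference of the dopamine receptors, Drd1a minus Drd2 in log2 CPM, was 0.42 ± 0.080 over 8 congenic mice and 0.39 ± 0.10 over 8 wild-type mice (SD). In bulk tissue, fewer neurons of a class and less RNA per neuron cannot be told apart, so an even balance describes RNA and not cell numbers.

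**Figure D2:**
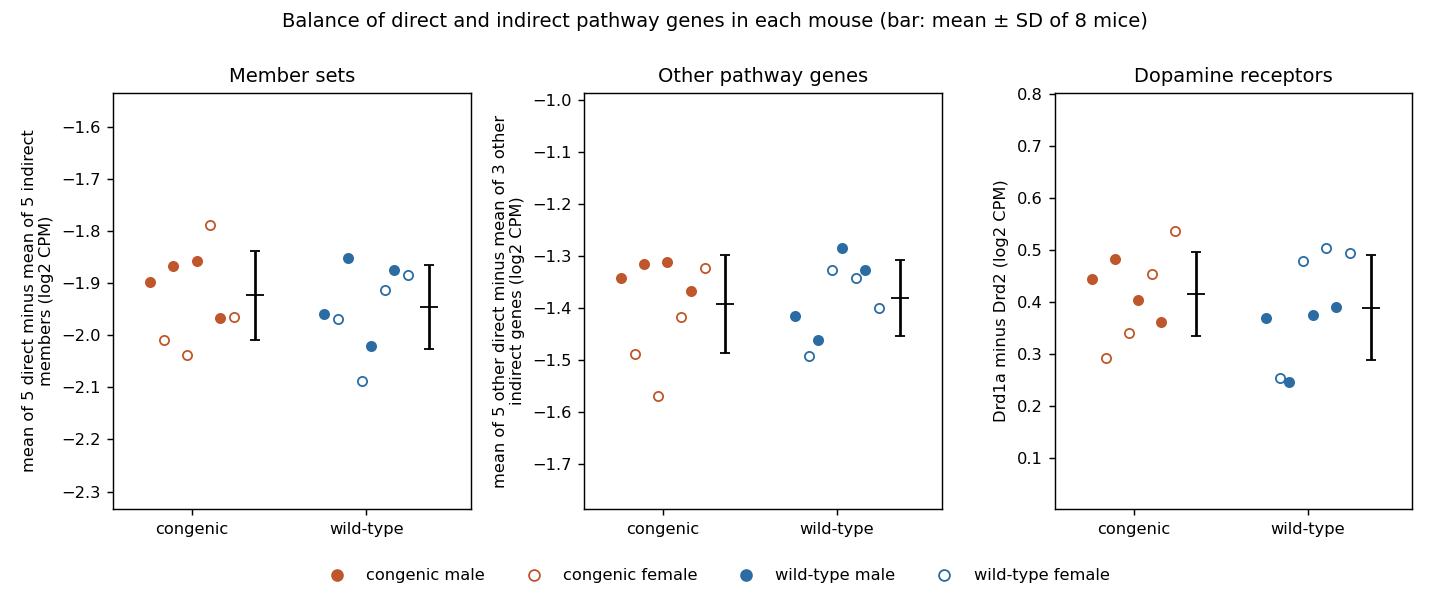
Balance of direct and indirect pathway genes in each mouse, as differences of log2 CPM, for the member sets, the other pathway genes and the dopamine receptors, with congenic mice on the left and wild-type mice on the right; bars give the mean and SD of 8 mice. The vertical axes span the same width around different centres, and the genotypes overlapped in all 3 panels, with means of -1.92 in congenic and -1.94 in wild-type mice for the member sets.

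By the rule for naming genes, the 3 non-members of highest Pearson correlation with the balance over 16 mice were F630042J09Rik (r = 0.79), Gm16897 (0.79) and Ap1s3 (0.74), out of 14074 genes of at least 1 CPM on average. The 3 of lowest correlation were Ilf2 (-0.85), Pnmal1 (-0.84) and Dcbld1 (-0.83). These are the extremes of many genes and are given as a description.

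Between the sexes, 9 of 10 members were higher in males, as were 8016 of the 16716 genes tested. By edgeR's quasi-likelihood test with Benjamini-Hochberg adjustment, 0 of 10 members passed over all genes, against 0.138% of all genes called. At an unadjusted p under 0.05 there were 4 members, Isl1, Ebf1, Chrm4 and Gpr52, where 14.7% of all genes reached that level. DESeq2 and limma-voom also had 4 members at that level and called 0, and the share of all genes at that level was not computed for them. Gpr52 had 66.6, 73.8 and 83.1 CPM as lowest, median and highest in males, and 53.3, 66.0 and 72.7 CPM in females. The ranges overlapped, and the log2 fold change of males over females was 0.20 (SE 0.06; adjusted p = 0.164 in edgeR's quasi-likelihood test).

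Isl1 had 18.3, 19.3 and 21.7 CPM in males, and 16.4, 17.5 and 19.4 CPM in females, a log2 fold change of 0.15 (SE 0.04; adjusted p = 0.164 in edgeR). Females Sample_4739 and Sample_4753 lay within the range of the males and the other females below it. Ebf1 had 9.26, 10.5 and 13.2 CPM in males, and 7.597, 9.27 and 11.04 CPM in females, a log2 fold change of 0.23 (SE 0.08; adjusted p = 0.228 in edgeR). Chrm4 had a log2 fold change of 0.15 (SE 0.06; adjusted p = 0.288 in edgeR), Gpr6 0.13 (SE 0.06) and Adora2a 0.09 (SE 0.05), while Grik3 had -0.05 (SE 0.05).

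The means of both sets were higher in males, and the balance differed by 0.05 between the sexes. The mean over the direct members was 4.75 ± 0.073 log2 CPM in males and 4.63 ± 0.070 in females, and the mean over the indirect members was 6.66 ± 0.055 in males and 6.58 ± 0.093 in females (SD, n = 8 each). The balance was -1.91 ± 0.063 in males and -1.96 ± 0.094 in females (SD, n = 8 each). Of the 5 other direct pathway genes, 4 were at an unadjusted p under 0.05 in edgeR and 0 were called. Of all genes tested, 14.7% were at that level. The log2 fold changes of males over females in these 5 were 0.09 for Zfp521 to 0.23 for Pdyn. Of the 3 other indirect pathway genes, Drd2 had 0.16 (SE 0.06), Penk 0.09 and Plxdc1 0.01, and 0 were called. Some lists of other cells and genes also leaned one way between the sexes and others did not, none with a called gene. Higher in males were 17 of 20 shared projection neuron genes (median log2 fold change 0.08), 7 of 7 cholinergic markers (0.18) and 6 of 7 microglial markers (0.16), and 0 of 8 ependymal markers (-0.28). The count was 6 of 7 for endothelial, 5 of 6 for oligodendrocyte precursor and 7 of 10 for mural markers. It was 1 of 8 for oligodendrocyte and 1 of 7 for thalamic markers, and that thalamic marker is also in the cholinergic list. Less one-sided were GABA interneuron (6 of 10), septum and pallidum (5 of 9), astrocyte (3 of 7) and choroid plexus markers (3 of 7). Of all genes tested, 8016 of 16716 were higher in males. The part of the other cells in the values of the members was not tested.

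Without the mouse labelled wild-type female Sample_4806, the log2 fold changes of males over females were 0.14 for Isl1, 0.22 for Ebf1, 0.13 for Chrm4 and 0.18 for Gpr52, with adjusted p values of 0.312, 0.387, 0.458 and 0.312 in edgeR. The means over the other 7 females were then 4.63 ± 0.076 log2 CPM for the direct and 6.60 ± 0.092 for the indirect members, and their balance was -1.97 ± 0.097. The other pathway genes had 0.17 for Pdyn, 0.18 for Slc35d3, 0.11 for Drd1a, 0.13 for Drd2, 0.052 for Penk and -0.024 for Plxdc1, whose sign turned. Of these, Drd1a, Slc35d3 and Drd2 had an unadjusted p under 0.05 in edgeR and none was called. The share of all genes at that level was not computed for this fit, and was 14.7% with all mice. By sample number all males fell in the range Sample_4671 to Sample_4734, and all females but Sample_4676 and Sample_4677 came after them, so sex and whatever the numbers stand for cannot be told apart. Of 12 markers of cortical excitatory neurons, 11 were lower in males, with a median log2 fold change of -0.62, and 10 were lower in congenic mice, with a median of -0.35, none of them called. Their summed level ran from 184.8 through a median of 234.9 to 408.4 CPM in males and from 200.9 through 343.0 to 416.1 CPM in females. It ran from 184.8 through 240.4 to 416.1 CPM in congenic mice and from 221.9 through 317.5 to 408.4 CPM in wild-type mice, and none of the 12 markers was at 0 in any of these groups. Their part in the results by genotype and by sex was not tested beyond a fit with their score as a covariate, in which Isl1 had 0.11 and Gpr52 0.14 by sex, and 0 members were called.

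**Figure D3:**
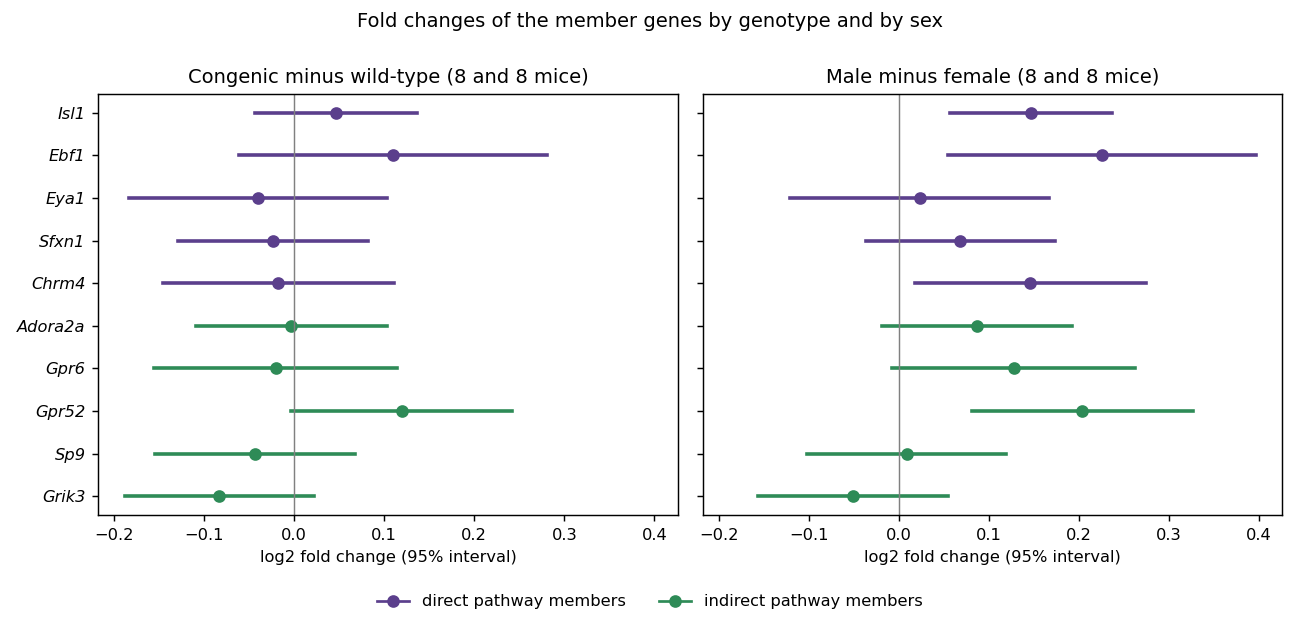
Log2 fold change of each member gene with its 95% interval from edgeR, for congenic minus wild-type mice on the left and male minus female mice on the right, with direct members in purple and indirect members in green (8 mice against 8 in both panels). All 10 intervals by genotype include 0, while those of Isl1, Ebf1, Chrm4 and Gpr52 by sex lie above 0 before adjustment over all genes.

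The genotype difference was not detectably different between the sexes for any member. In the model with genotype, sex and their product, 0 of 10 members were called, against 0% of all genes, and 0 had an unadjusted p under 0.05 in edgeR, DESeq2 or limma-voom. The largest estimate was that of Sp9, whose log2 fold change of congenic over wild-type mice was 0.04 (SE 0.07) in males and -0.13 (SE 0.07) in females, a difference of 0.17 with a 95% interval of -0.04 to 0.39 (adjusted p = 0.967 in edgeR's quasi-likelihood test). Gpr6 and Chrm4 had the opposite sign, with -0.09 and -0.09 in males and 0.05 and 0.06 in females, differences of -0.15 each with 95% intervals of -0.42 to 0.12 and -0.40 to 0.11.

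Levels per kilobase of exon spanned a wide range and kept their order in both genotypes. The lengths were those of the merged exons in the GENCODE annotation of NCBIM37. Adora2a was the most abundant member at 195 ± 13.7 CPM per kilobase in congenic mice (SD, n = 8), and its mean over all 16 mice was 4.804-fold above that of Chrm4, with no overlap between mice. Chrm4 and Gpr6 followed at 40.4 ± 4.09 and 39.2 ± 3.77 CPM per kilobase in congenic mice (SD, n = 8 each), and their ranges overlapped, with Chrm4 the higher in 11 of 16 mice. Sfxn1 averaged 23.8 and Grik3 14.4 CPM per kilobase over all mice, each apart from its neighbours in the order.

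The nuclear factors were the least abundant members. Isl1 averaged 7.34 CPM per kilobase and Sp9 5.98 over all mice, and their ranges overlapped although Isl1 was the higher in 16 of 16 mice. The Isl1 length comes from a model of 6 bins, where the deposited exon table has 14. That of Sp9 includes a bin of 260 bp with 2 to 15 counts per mouse and another of 270 bp with 0. The order of these 2 genes thus depends on the lengths used. Eya1 averaged 1.89 and Ebf1 1.03 CPM per kilobase. The Ebf1 length of 9.756 kb includes a noncoding bin of 3351 bp with 0 to 8 counts per mouse. Its distance from Eya1 thus depends on the exon model. For comparison, Penk averaged 978, Tac1 200.1, Drd2 87.1 and Drd1a 83.0 CPM per kilobase. Gpr52 had no exon model in that annotation and no place in the order. Exons of Chrm4 overlap those of Mdk by 25 bp and exons of Sp9 those of Cir1 by 270 bp, both on the opposite strand, and whether counting used strand is not stated in the labels.

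The members differed in how far they varied between mice of the same genotype and sex. Isl1 had a residual SD of 0.073 log2 units, and 6.58% of the genes of like expression level had a lower one. Gpr6 had 0.15, Chrm4 0.14 and Gpr52 0.14, with 88.8%, 85.9% and 85.2% of the genes of like level below them. Ebf1 had the largest residual SD at 0.19, at a lower expression level. The median over all genes tested was 0.13.

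Several genes of opposite classes were high in the same mice. Of the 45 pairs of members, 8 were correlated over the 16 mice at a Benjamini-Hochberg adjusted p under 0.05 by permutation of Pearson's r, all 8 positive, and 7 by Spearman's rho. Of those 8 pairs, 6 joined a direct with an indirect member, 1 lay within the direct set and 1 within the indirect set. The median r was 0.30 over the 10 pairs within the direct set, 0.31 over the 10 within the indirect set and 0.10 over the 25 between the sets. Values of r of that size were not rare: 4.73% of all pairs among 14084 genes were at or past the smallest called r of 0.67 in either direction, and 2.58% in the positive direction, against 17.8% of the member pairs. The cut came from the called member pairs themselves, and the 45 pairs share 10 genes. The shares were therefore not compared by a test. For single members the share of all other genes at or past it was 18.3% for Gpr6, 11.5% for Chrm4, 8.12% for Adora2a and 6.48% for Ebf1, and 0.114% for Eya1. All points share the scaling of their library, so these are relations among library-scaled levels.

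The closest pair was Chrm4 and Adora2a, the muscarinic receptor of the direct and the adenosine receptor of the indirect pathway. Congenic female Sample_4804 had the lowest value of both, at 95.1 CPM of Chrm4 and 428.1 CPM of Adora2a, and wild-type male Sample_4712 the highest of both, at 136.6 and 569.6 CPM. Over 16 mice r was 0.90 and rho 0.89, with a two-sided permutation p of 1e-05 for r, the smallest that 100000 permutations can give (adjusted p = 0.000450 for r and 0.000900 for rho). Without the 2 mice farthest from the median of Chrm4, r was 0.83. Within sexes r was 0.82 in males and 0.97 in females, and within genotypes it was 0.83 in congenic and 0.97 in wild-type mice. After centring on the genotype-by-sex means it was 0.87.

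Gpr6 and Ebf1 belonged with that pair. The Chrm4 and Gpr6 promoters printed above hold 4 and 0 GC boxes, and any link of these counts to the correlations was not tested. Gpr6 had r of 0.77 with Chrm4 and 0.76 with Adora2a (permutation, adjusted p = 0.00664 and 0.00525), with rho of 0.73 and 0.76. Without the 2 mice farthest from the median of Chrm4 and of Adora2a in turn, the r values were 0.71 and 0.68. Ebf1 had r of 0.80 with Chrm4 and 0.73 with Adora2a (permutation, adjusted p = 0.00382 and 0.0110), with rho of 0.78 and 0.67. Without the 2 mice farthest from the median of Ebf1, these r values were 0.77 and 0.72. Within sexes, Ebf1 with Adora2a was less even, at 0.32 in males and 0.86 in females. Ebf1 with Gpr6 had r of 0.68 and rho of 0.65 (permutation, adjusted p = 0.0258 and 0.0481). Without the 2 mice farthest from the median of Ebf1, that r was 0.59. After centring all 16 mice on the genotype-by-sex means, r was 0.61, which was no longer called (permutation, adjusted p = 0.0806).

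The called relations of Gpr52, an indirect member, were with direct members. It had r of 0.73 with Isl1 and 0.67 with Ebf1 (permutation, adjusted p = 0.0110 and 0.0271), with rho of 0.69 and 0.54, of which that with Ebf1 was not called (permutation, adjusted p = 0.192). Without the 2 mice farthest from the median of Isl1, r with Isl1 was 0.77. Without the 2 farthest from the median of Ebf1, r with Ebf1 was 0.59. Congenic female Sample_4804, the lowest mouse in Gpr52, was kept in both, and r without it was not computed. Within sexes r with Isl1 was 0.58 in males and 0.48 in females, and with Ebf1 it was 0.23 in males and 0.68 in females. In the whole set of mice r was 0.43 with Adora2a and 0.45 with Gpr6, which were not called. The difference between these coefficients was not tested. Both called relations were lost when values were centred on the genotype-by-sex means, with r of 0.42 and 0.48 (permutation, adjusted p = 0.237 and 0.179). Sp9, Grik3, Eya1 and Sfxn1 had no called relation with any member. The lowest r was that of Isl1 with Grik3, at -0.57 (permutation, adjusted p = 0.104), and it was -0.14 without the 2 mice farthest from the median of Isl1.

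**Figure D4:**
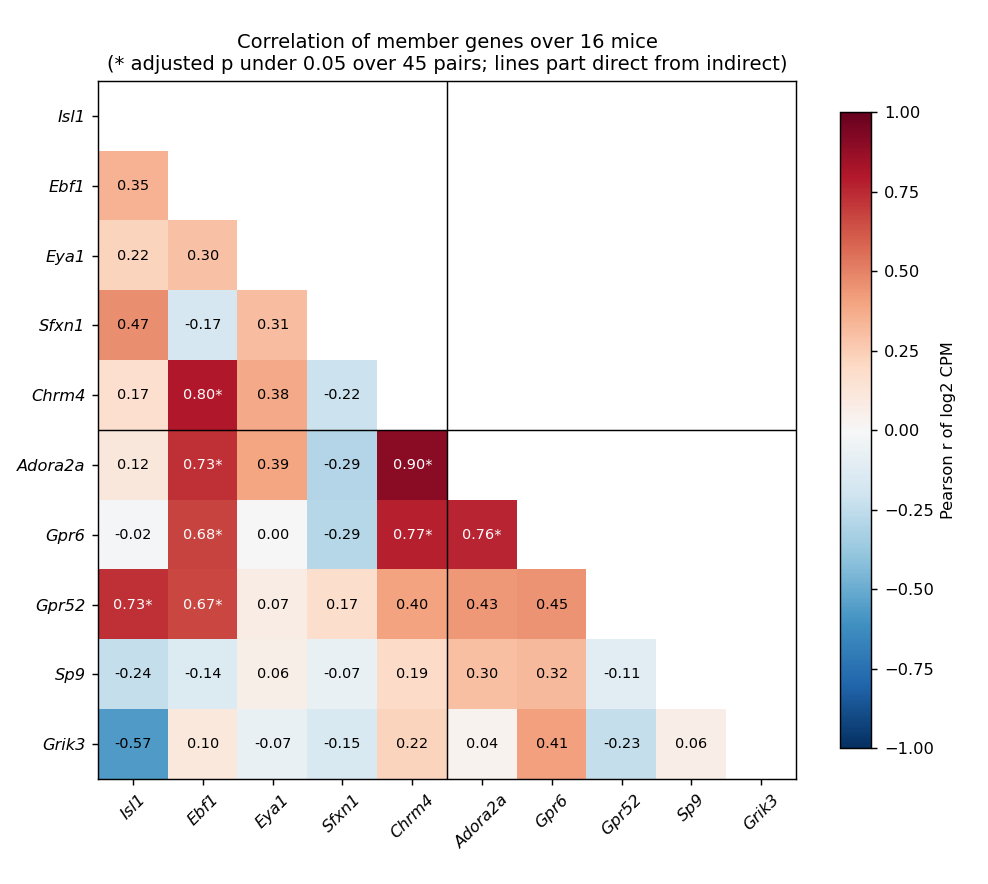
Pearson correlation of log2 CPM over 16 mice for each pair of members, with an asterisk where the permutation p adjusted over 45 pairs is under 0.05 and lines that part direct from indirect members. The block of high values joins Ebf1 and Chrm4 with Adora2a and Gpr6 across the sets, with 0.90 for Chrm4 and Adora2a.

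The members of that block also ran with marker scores of other cells of the punch. A score is the mean of the centred log2 CPM of a list, and 50 relations of 10 members with 5 scores were computed. By permutation, 19 of 50 were called after Benjamini-Hochberg adjustment with Pearson's r, with adjusted p values of 0.00100 to 0.0402, and 14 with Spearman's rho. The relations not called by rho were those of Adora2a and Gpr52 with the shared score, of Adora2a with the septum and pallidum score, and of Isl1 and Grik3 with the cortical score. The 5 scores were a choice among the lists, and no share over other sets of genes was computed for these relations. For single genes, 18.3% of all others were at or past an r of 0.67 in either direction with Gpr6, 11.5% with Chrm4 and 8.12% with Adora2a. The calls are thus not shown to be particular to the cells that the scores stand for. The score of 20 genes shared by both classes of projection neuron was correlated with Ebf1 (r = 0.82), Chrm4 (0.80), Adora2a (0.76), Gpr6 (0.76) and Gpr52 (0.63). After the 2 farthest mice, wild-type female Sample_4753 and congenic female Sample_4804, were left out, these were 0.69, 0.69, 0.54, 0.69 and 0.37. The relation with Gpr52 did not hold within males, where r was -0.27, against 0.91 in females, while the other 4 had 0.72 to 0.90 in males and 0.63 to 0.74 in females. The cholinergic interneuron score had r of 0.87 with Gpr6, 0.84 with Chrm4, 0.73 with Adora2a and 0.72 with Ebf1. Without its 2 farthest mice, Sample_4806 and Sample_4712, these were 0.81, 0.82, 0.69 and 0.68. The same score was not called with Isl1 (r = 0.12), although cholinergic interneurons express Isl1. That r was -0.69 in males and 0.09 in females, and 0.02 in congenic and 0.45 in wild-type mice. The differences between these groups were not tested.

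The mural cell score was correlated with Chrm4 (r = 0.78), Gpr6 (0.75), Adora2a (0.71) and Ebf1 (0.59), and the septum and pallidum score ran the other way, with -0.74 for Ebf1, -0.66 for Chrm4 and -0.60 for Adora2a. Without the 2 farthest mice of each score these were 0.75, 0.77, 0.79 and 0.72 for the mural score and -0.70, -0.68 and -0.67 for the septum and pallidum score. The cortical excitatory neuron score had r of -0.72 with Gpr52, -0.67 with Isl1 and 0.66 with Grik3. Without its 2 farthest mice, Sample_4739 and Sample_4673, these were -0.66, -0.49 and 0.39. Within genotypes the relation with Grik3 was 0.79 in congenic and -0.006 in wild-type mice, that with Isl1 was -0.81 in congenic and -0.21 in wild-type mice, and that with Gpr52 was -0.67 in congenic and -0.72 in wild-type mice. The difference between the genotypes was not tested. The summed level of the 20 shared genes ran from 15571 through a median of 18207 to 19273 CPM in congenic mice and from 16568 through 18164 to 19807 CPM in wild-type mice. That of the 9 septum and pallidum markers ran from 74.6 through 87.8 to 170.8 CPM in congenic and from 86.6 through 96.9 to 146.6 CPM in wild-type mice. Summed cholinergic markers ran from 95.3 to 125.2 CPM in congenic and from 96.4 to 134.8 CPM in wild-type mice, and mural markers from 200.8 to 244.6 CPM in congenic and from 203.4 to 259.2 CPM in wild-type mice. The part of these cells in the relations among members was not tested.

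By the same naming rule, the non-member closest to each member over 16 mice, out of 14074 genes, was Trh for Isl1 (r = 0.85), Gpr146 for Ebf1 (0.88), Henmt1 for Eya1 (0.73), Zfr for Sfxn1 (0.82) and Cyp46a1 for Chrm4 (0.93). For the indirect members it was Cyp46a1 again for Adora2a (0.92), Gpi1 for Gpr6 (0.95), Snx25 for Gpr52 (0.90), BC022687 for Sp9 (0.87) and Synj1 for Grik3 (0.93). Chrm4 and Adora2a thus shared the gene whose pattern was most like theirs. Drd1a had rank 3 for Gpr52 (r = 0.88). Drd2 had rank 12 for Ebf1 (r = 0.84) and rank 72 for Chrm4 (r = 0.84), both direct members. It had rank 83 for Adora2a (r = 0.82) and rank 312 for Gpr6, although r was 0.85 there. Within a class, Tac1 had rank 35 for Isl1 (r = 0.75) and Penk rank 60 for Adora2a (r = 0.83). Across the classes, Pdyn had rank 47 for Gpr6 (r = 0.91). Beyond those named here, no pair of a member with another pathway gene had a rank of 83 or better.

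Exon use of the members did not differ detectably between the genotypes. The deposited exon table holds 112 bins for 9 of the members, a bin being a stretch of exon covered by one fixed set of transcripts, and Gpr52 has none in it. Of these, 98 were put through diffSpliceDGE of edgeR, a test of a bin relative to all other bins of that gene, and 0 were called, against 0.000425% of the 235478 bins tested. At an unadjusted p under 0.05 there were 0 member bins, against 1.04% of all bins, and also 0 with limma diffSplice. At the level of genes, 0 of the 9 members were called by the Simes method, against 0.00672% of genes. The smallest p was 0.135, at bin 27 of Ebf1, a coding bin of 180 bp at chr11:44805811-44805990 of NCBIM37, whose share of all Ebf1 exon counts was 4.57 ± 0.52% for congenic mice and 5.10 ± 0.80% for the wild type (SD over 8 mice).

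Shares of the main bins of the receptor genes were close between the genotypes. The bin of Chrm4 that holds its coding sequence, 1440 bp at chr2:91767406-91768845, took 51.6 ± 1.122% of its exon counts for congenic mice and 51.4 ± 0.87% for the wild type. The last bin of Adora2a, 1762 bp at chr10:74795772-74797533, took 70.9 ± 0.50% in congenic and 70.6 ± 0.61% in wild-type mice. Log2 fold changes relative to the other bins lay between -0.10 and 0.003 for Chrm4, between -0.02 and 0.02 for Adora2a, between -0.003 and 0.02 for Gpr6 and between -0.07 and 0.10 for Grik3. They spread wider in the members of few counts, between -0.33 and 0.26 for Ebf1, where the lowest belonged to a bin of 0 to 17 counts per mouse, between -0.25 and 0.26 for Eya1 and between -0.14 and 0.28 for Isl1.

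**Figure D5:**
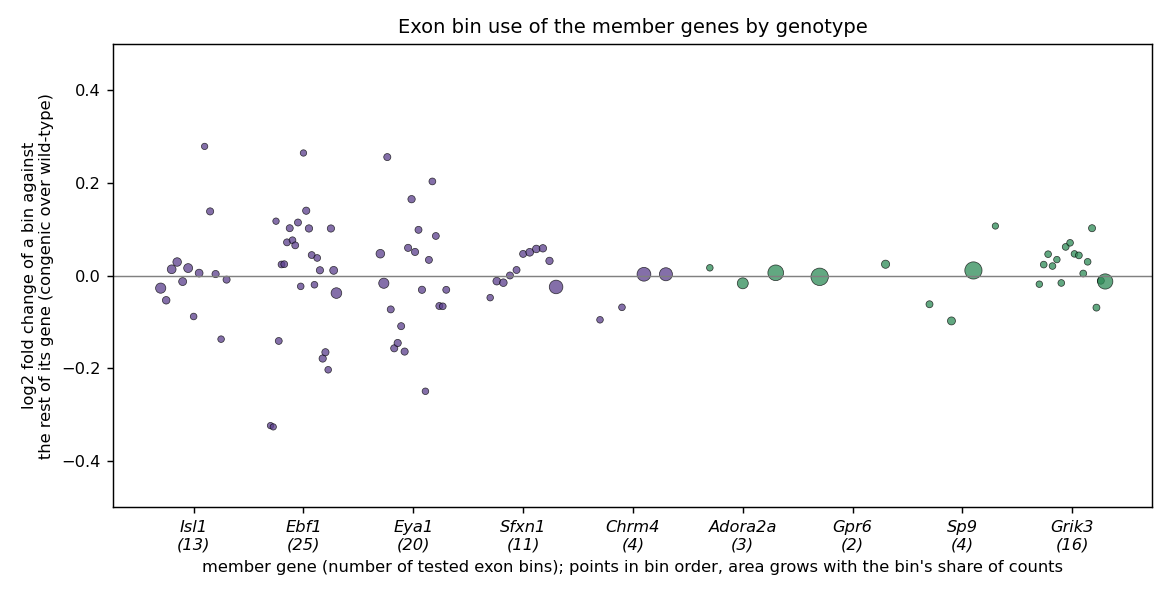
Log2 fold change of each tested exon bin relative to the other bins, congenic over wild-type mice, for the 9 members with bins in the table; points run in bin order, purple for direct and green for indirect members, and their area grows with the bin's share of the gene's counts. The large bins lie near 0, and the widest spread, -0.33 to 0.26, is that of Ebf1.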

How the data were processed

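Whole-number read counts per gene and per exon bin were deposited by the authors for 48 runs, without normalization. Per the submitters' processing notes, the tools were HTSeq 0.6.1p1, FastQC 0.10.1, limma 3.22.7 and edgeR 3.8.6, and the builds mm9 and mm10. The aligner and the strand setting are not given in the sources used here, and the labels give both 50 bp single-end and 100 bp paired-end reads. The 3 lanes of a mouse were summed, and a mouse held 73.1 to 82.0 M gene counts and 118.5 to 133.2 M exon-bin counts. Runs of a mouse had a chi-square dispersion index of 1.89 to 1.94, and runs of different mice 4.88 to 29.8.

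Genes were kept by edgeR's filterByExpr (minimum count 10, minimum total 15) and fitted together in R 4.3.3 with edgeR 4.0.16 (TMM, robust quasi-likelihood, genotype and sex). A call is a Benjamini-Hochberg adjusted p under 0.05. DESeq2 1.42.0, limma-voom 3.58.1, other scaling, no filter, a cortical score covariate and the omission of each mouse were alternatives. Log2 CPM used a prior count of 2. Correlations used Python 3.11.15 with 100000 two-sided permutations, adjusted over 45 pairs or 50 relations. The tests were tested on simulated data. Coordinates are NCBIM37 (mm9), on which the rebuilt bins of the members matched the deposited ones in number except for Isl1. The named genes are the members, the other pathway genes, and the closest non-member by Pearson's r (3 at each end for the balance). Members and lists were chosen with earlier results of these data known.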

Additional observations from a re-analysis of the deposited data

How the results depend on the processing

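No member was called by genotype, by sex or for their interaction under any of the 5 other settings or in any of the 16 fits that left out a mouse, and 0 of 210 refitted log2 fold changes by genotype and 0 of 210 by sex had an adjusted p under 0.05 in the test used. The lowest adjusted p values by sex were those of Gpr52 (0.0530) and Isl1 (0.0537) with DESeq2. Without a mouse in turn, signs near 0 turned by genotype for Sfxn1 (-0.045 to 0.0092), Chrm4 (-0.055 to 0.015), Adora2a (-0.031 to 0.022) and Gpr6 (-0.054 to 0.0089), and by sex for Eya1 (-0.010 to 0.059) and Sp9 (-0.030 to 0.034). With the cortical score as a covariate, Grik3 by sex was 0.0067. The cause was not tested. The count of all genes called by sex, 23, was 13 with the cortical score, 259 with DESeq2 and 12 (without Sample_4672 or Sample_4731) to 76 (without Sample_4712) without a mouse in turn. The balance by genotype was -0.03 to 0.02 under other settings and 0.001 to 0.04 without a mouse in turn. Of the 8 called pairs, 5 were among the 6 called on plain totals, where Isl1 with Grik3 (r = -0.68) was gained, and 5 among the 6 called after centring, where Gpr6 with Grik3 (0.63) was gained. In alternatives added after seeing the data, without Sample_4806, 7 pairs and 17 of the 19 marker relations were called. The number of mice, 8 per genotype, and the spread between them set the SE of the fold changes, 0.043 for Isl1 to 0.082 for Ebf1 by genotype. The wild-type mice were littermates of the congenic mice, but litters are not in the labels, so no analysis paired by litter was possible.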
